A study of Mus musculus with 44 samples.

Results

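Fatty acid oxidation and ketogenesis are described here through 35 genes, taken by symbol from the count table of liver nuclei, out of 20105 RefSeq identifiers in all. Each of the 35 was measured, and each passed the filter on low counts in every comparison below. The genes were listed by function, with earlier results of these data known. They were ordered by step: activation and the carnitine shuttle, the mitochondrial spiral, the electron transfer flavoprotein, peroxisomal and omega oxidation, ketone steps, thioesterases and regulators. The mice were males of the HEP-INTACT line, whose hepatocytes have tagged nuclei that can be pulled out of the liver. Each of 22 mice was sequenced as a pair: its tagged hepatocyte nuclei and the nuclei of its whole liver. In the first feeding study, mice received the FPC diet for 20 weeks (4 mild, 3 advanced), and 4 controls received a low fat diet for the same period. FPC is known as a fructose, palmitate and cholesterol diet. In the second, mice received the CDAHFD, a high fat diet known for lacking choline and defining its amino acids, for 7 weeks (4 mild, 3 advanced), against 4 controls kept on low fat diet over that period. Mild and advanced steatohepatitis were assigned from liver histology after feeding, so these groups were not randomised. Both had fatty and inflamed livers, and fibrosis reached a significant degree in the advanced group only. Age and the promoter that drives the tag are not given in the labels. Each replicate is a separate mouse, named by its number. In nuclei pooled from a tissue, fewer cells of a type and less RNA per cell cannot be told apart.

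Fatty acid oxidation shortens acyl-CoA step by step, after activation by synthetases and entry into mitochondria on carnitine, and it feeds electrons into the respiratory chain through the electron transfer flavoprotein. In liver much of the acetyl-CoA is turned into ketone bodies, which the organ exports when food is short. Very long chains are first shortened in peroxisomes, omega oxidation by Cyp4a enzymes is a side route, and many of these genes are targets of the fatty acid sensor PPAR-alpha.

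Levels are given as scaled CPM, that is CPM after TMM scaling over all 44 libraries, and are listed from low to high within a group. Library totals ran from 12.1 to 33.1 M counts (M for mega), with a median of 22.8 M. In 32 of the 35 genes the counted length was the whole gene, introns included, per the authors' deposited table, so the values describe nuclear RNA that is partly unspliced. Per kilobase of that length, Acaa1b had the highest level in hepatocyte nuclei of both control groups, at 72.6 ± 38 (SD, n = 4) scaled CPM per kb in the FPC study and 41.1 ± 11 (SD, n = 4) in the CDAHFD study. Acsl1 ranked next, at 17.5 ± 2.72 and 16.8 ± 12.5, and Acaa1a followed, at 14.7 ± 3.11 and 13.2 ± 3.8. The Acsl1 and Acaa1a means differed by less than the SD of Acaa1a in both studies. Acot1 (0.175 ± 0.115 and 0.0777 ± 0.0412) and Acot2 (0.0543 ± 0.033 and 0.033 ± 0.0252) were the lowest of the 35 in both.

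Promoter sequences are shown for 5 members that moved together in both advanced groups: Acot2, Acot1 and Pdk4 were among those higher, and Echs1 and Etfa among those lower. Each is the 250 bases before the annotated start, 5′ to 3′ on the gene's strand, from RefSeq on GRCm38.p6: Acot2 at chr12:83987611-83987860, plus strand, Acot1 at chr12:84009252-84009501, plus strand, Pdk4 at chr6:5496279-5496528, minus strand, Echs1 at chr7:140116422-140116671, minus strand and Etfa at chr9:55512244-55512493, minus strand. Capitals mark a match, on either strand and with at most 2 mismatches, to AGGTCA, any 1 base and AGGTCA again, the direct repeat to which PPAR-alpha is known to bind with its partner.
Acot2: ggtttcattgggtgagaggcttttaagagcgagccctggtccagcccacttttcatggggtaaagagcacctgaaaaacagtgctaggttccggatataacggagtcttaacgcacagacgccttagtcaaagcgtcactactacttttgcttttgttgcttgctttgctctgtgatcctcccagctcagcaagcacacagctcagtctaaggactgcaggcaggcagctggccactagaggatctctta
Acot1: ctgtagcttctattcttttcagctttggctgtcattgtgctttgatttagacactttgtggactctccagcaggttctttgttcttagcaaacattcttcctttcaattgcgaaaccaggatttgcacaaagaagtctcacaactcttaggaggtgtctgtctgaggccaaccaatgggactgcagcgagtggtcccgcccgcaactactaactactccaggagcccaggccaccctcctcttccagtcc
Pdk4: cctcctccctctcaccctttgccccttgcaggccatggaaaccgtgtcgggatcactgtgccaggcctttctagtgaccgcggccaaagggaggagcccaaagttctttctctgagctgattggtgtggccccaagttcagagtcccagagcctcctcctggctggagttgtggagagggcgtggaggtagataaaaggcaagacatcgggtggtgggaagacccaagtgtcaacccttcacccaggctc
Echs1: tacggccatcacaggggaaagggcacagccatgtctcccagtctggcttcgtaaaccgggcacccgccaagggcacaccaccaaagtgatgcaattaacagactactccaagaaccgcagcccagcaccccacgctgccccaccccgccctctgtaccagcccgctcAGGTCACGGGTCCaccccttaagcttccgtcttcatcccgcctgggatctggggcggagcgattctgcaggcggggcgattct
Etfa: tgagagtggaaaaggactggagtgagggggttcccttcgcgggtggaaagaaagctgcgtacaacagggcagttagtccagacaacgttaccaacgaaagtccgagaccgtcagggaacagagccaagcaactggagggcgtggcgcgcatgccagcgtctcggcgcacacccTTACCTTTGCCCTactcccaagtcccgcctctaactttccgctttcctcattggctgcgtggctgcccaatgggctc

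In windows from 250 bases before to 50 bases after a start, the repeat was matched in 3 of 30 windows of members (10%) and in 1268 of 32851 windows of all genes (3.86%). The 28 members with a window had 2 among them with a pair of windows, and Cyp4a14, Cyp4a10, Decr1, Acaa2, Crat, Acat1 and Vnn1 had no window to search. The hits were AGGTCACGGGTCC in Echs1, starting at -83 from the start, AGGGCAAAGGTAA on the opposite strand in Etfa at -77, and AGGTGAAAGGTCG in Slc25a20 at 7 bases after it. Both printed matches belong to genes that were lower, and the 3 printed promoters of genes that were higher hold none. This split describes the promoters picked for print. Acsl1, Cpt2, Acad11, Etfb and Ppargc1a, also lower in both advanced groups, had windows without a match, and Slc25a20 was called in neither advanced group. A match of letters is a description and not a binding site.

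Some features of the libraries bear on all values. TMM factors were 0.72 to 0.83 in hepatocyte control libraries and 1.03 to 1.18 in advanced ones; scaling by library total instead moved the median of all genes up by 0.41 (FPC) and 0.49 (CDAHFD) on the log2 scale in advanced against control. Changes are therefore given relative to the median gene, and counts of members by library total are given for the comparisons against control. The hepatocyte marker list, of 10 genes, summed to 16369 to 28700.3 scaled CPM in hepatocyte nuclei of FPC controls, where 8 endothelial markers summed to 76.5 to 113 against 748 to 1056 in whole liver. In hepatocyte nuclei of advanced mice the hepatocyte sum was lower, 6377 to 10681 (FPC) and 7613 to 10421 (CDAHFD, controls 15832 to 27760.1), with 9 and 6 of the 10 markers called lower. The 7 cholangiocyte markers, all called higher in both studies, summed to 447 to 505 in FPC controls and 2922 to 4142 in advanced mice, and to 338 to 381 and 1042 to 1454 in the CDAHFD study. The 6 recruited macrophage markers, also all called higher, summed to 3.54 to 5.45 in FPC controls, where Trem2 was at 0, and 40.4 to 54.9 in advanced mice, and to 4.85 to 9.04 and 62.3 to 66.5 in the CDAHFD study. Among the remaining lists, 5 (FPC) and 4 (CDAHFD) of 9 stellate, 2 and 5 of 7 Kupffer cell, 1 and 0 of 8 endothelial, 4 of 6 and 4 of 5 lymphocyte and 1 and 1 of 1 neutrophil markers were called higher. The part of these in the members' changes was not tested. In hepatocyte nuclei of CDAHFD mice short genes also sat higher than long ones: the median log2 fold change of advanced against control was 0.24 for genes under 10 kb and -0.19 for genes of 80 kb and over, against -0.02 and 0.11 in the FPC study. Libraries of the CDAHFD controls CDAHFD_Control_9862 and CDAHFD_Control_9867 each resembled the other mouse's library of the second fraction more than its own, across 10249 genes. Both are controls, so the grouping within a fraction does not depend on it.

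In hepatocyte nuclei of advanced FPC mice, Crat, Cyp4a14, Acot1, Acot2 and Pdk4 rose against low fat controls, by 1.23 to 3.5 on the log2 scale, and 10 members fell: Acsl1, Cpt2, Acad11, Echs1, Acaa2, Etfa, Etfb, Decr2, Acat1 and Ppargc1a. Thus 15 of 35 were called by edgeR's quasi-likelihood test at an adjusted p under 0.05, beside 46.9% of the 13498 genes tested (26.5% higher, 20.4% lower). The members' share of calls, 42.9%, lay near that background, and their median log2 fold change was -0.18 against 0.00 for all genes. By library total the split was 11 higher and 4 lower, beside 44.7% of all genes higher and 7.99% lower. Called in the same direction under both scalings were the 5 that rose and Acad11, Echs1, Acaa2 and Etfa. Leaving out each mouse in turn kept 9 of the 15 calls in every run: Cpt2, Crat, Acad11, Echs1, Acaa2, Etfa, Etfb, Acot1 and Acot2. The authors' deposited table gives the same sign for all 35 genes, with 5 higher and 7 lower at an adjusted p under 0.05.

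In hepatocyte nuclei of advanced CDAHFD mice the same 5 genes rose, with Acadvl, Ech1 and Acaa1b, and 12 fell: 9 of the 10 that fell in FPC mice (all but Decr2), and Hadh, Decr1 and Etfdh. The 20 calls of 35 (57.1%) stand beside 59.5% of 13277 genes (30.3% higher, 29.2% lower), and the median was -0.15. By library total 12 were higher and 4 lower, beside 49.6% of all genes higher and 12.3% lower. The 8 that rose and Echs1, Etfa, Acat1 and Ppargc1a were called under both scalings. Of the 20 calls, 15 held whichever mouse was left out; Acsl1, Acadvl, Hadh, Acaa1b and Acot1 did not. The authors' deposited table has 8 higher and 12 lower, with the same sign in 35 of 35 genes. No member was called in opposite directions in the 2 studies, and 14 were called in neither. Full separation was common: advanced and control mice did not overlap in 53.9% (FPC) and 55.7% (CDAHFD) of all genes in hepatocyte nuclei. Among the members, 5 lay above and 12 below in this way with FPC, and 5 and 10 with the CDAHFD. Mild and control mice did not overlap in 38.6% and 52.8% of all genes, and FPC advanced and mild mice in 27.6%. In whole liver the shares against control were 61.7% and 53% (advanced) and 38.9% and 46.1% (mild).

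**Figure D1:**
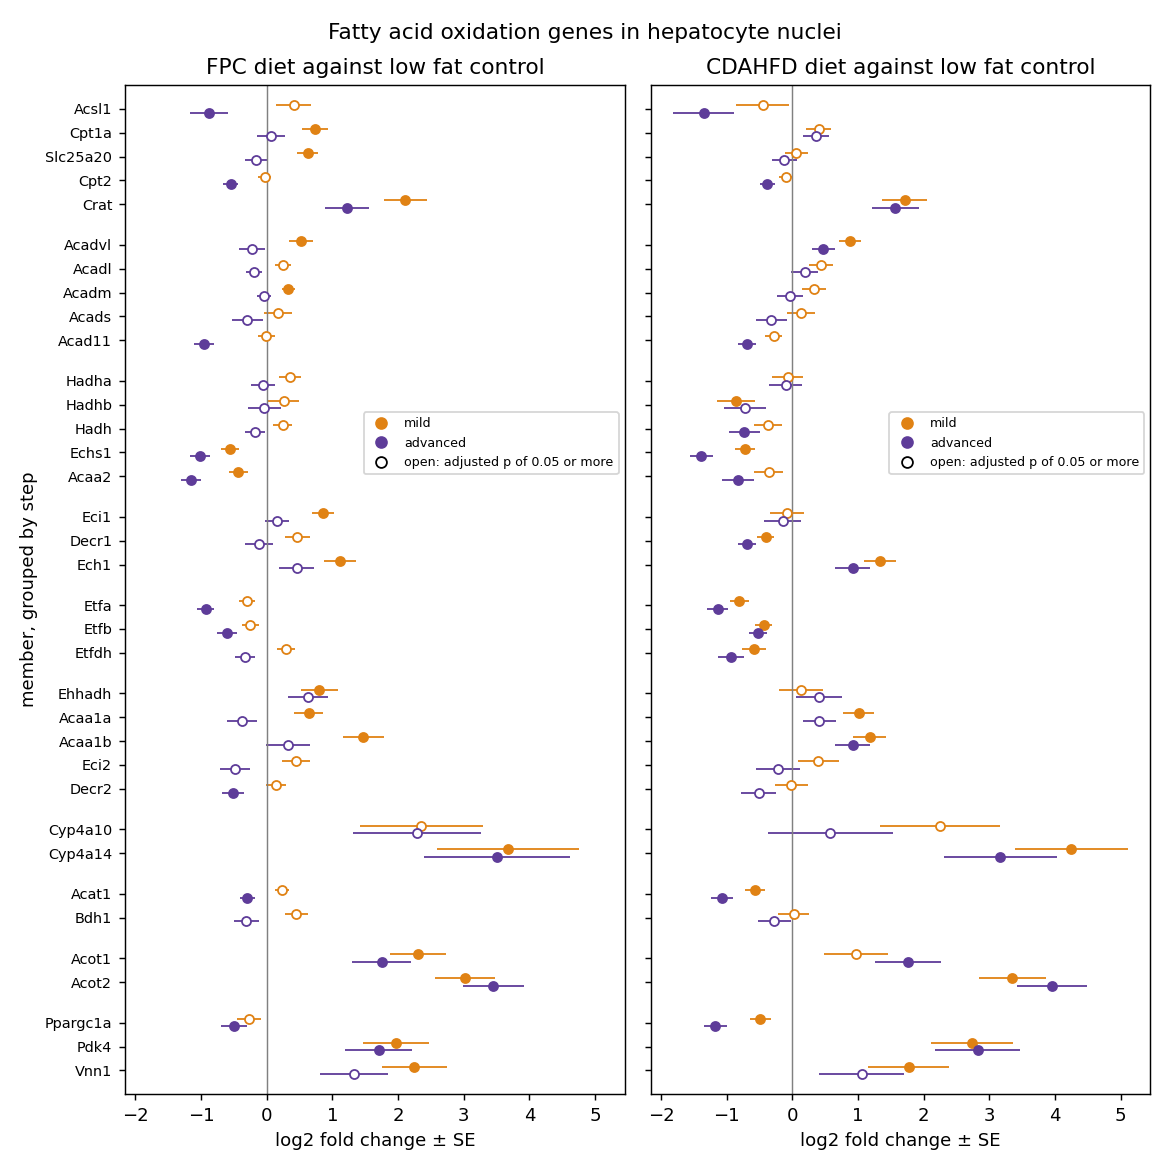
Log2 fold change against low fat control, with its SE, of the 35 members in hepatocyte nuclei, by step, for mild (orange) and advanced (purple) mice of the FPC study (left) and the CDAHFD study (right). Filled points had an adjusted p under 0.05. For 34 of the 35 genes in FPC mice the mild point lies to the right of the advanced point, and Acot2 lies at 3.45 and 3.95 in advanced mice of the 2 studies. The median over all genes was 0.04 in mild and 0.0 in advanced FPC mice, and the share of all genes with this order was not counted.

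In FPC mild mice 15 members rose against control and 2, Echs1 and Acaa2, fell (median 0.45; 33.1% of all genes called, 21.8% higher and 11.3% lower). By library total 23 rose and none fell, where the median of all genes was 0.28, against 0.04 by TMM. The shares of all genes called by library total are not given for this comparison, so these counts stand without a background. The 15 rises were shared by both scalings. In FPC advanced against mild mice 19 of 35 members were lower and 0 higher, with a median of -0.58, beside 20.2% of all genes called and 7.49% lower. Of the 15 genes raised in mild mice, 7 were lower in advanced than in mild: Cpt1a, Slc25a20, Acadvl, Acadm, Eci1, Acaa1a and Acaa1b. The other 8 had no call between these stages: Crat, Ech1, Ehhadh, Cyp4a14, Acot1, Acot2, Pdk4 and Vnn1. Echs1 and Acaa2 were lower at both steps. A further 10 members were lower in advanced than mild without a call in mild: Acsl1, Cpt2, Acadl, Acad11, Etfa, Etfdh, Eci2, Decr2, Acat1 and Bdh1. These comparisons share the mild libraries. By library total the median of all genes in advanced against mild mice was 0.13, against -0.03 by TMM. The count of 19 fell to 9 by library total (Acsl1, Slc25a20, Acad11, Acaa2, Etfa, Etfdh, Acaa1a, Eci2 and Acat1), and to 12 without mouse FPC_Advanced_6826, FPC_Advanced_6880 or FPC_Advanced_6904. No share of all genes by library total is given beside the 9.

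In CDAHFD mild mice 9 members rose (Crat, Acadvl, Ech1, Acaa1a, Acaa1b, Cyp4a14, Acot2, Pdk4 and Vnn1) and 8 fell (Hadhb, Echs1, Decr1, Etfa, Etfb, Etfdh, Acat1 and Ppargc1a), with a median of 0.06 and 56.3% of all genes called (29.6% higher, 26.7% lower). By library total 14 rose and 1, Etfa, fell, where the median of all genes was 0.38, against 0.03 by TMM. Here too the shares of all genes called by library total are not given. Advanced against mild CDAHFD mice gave 0 called members by edgeR, with 7 at an unadjusted p under 0.05; DESeq2 called 2 and a fit of only these 2 groups called 5. All genes gave 2.82% called there (1.52% lower), 8.53% by DESeq2 and 5.67% in the fit of only these groups. In 13 of the 35 members every advanced mouse lay below every mild mouse, as did 12.2% of all genes, and in 0 members every advanced mouse lay above (10.5% of all genes).

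Genes of activation and the carnitine shuttle moved in both directions. Acsl1, which activates long chain fatty acids, fell in both advanced groups, and Crat, which exchanges acetyl groups between CoA and carnitine, rose in all 4 diet groups. Of the 5 genes of this step, 1 rose and 2 fell in advanced mice of each study. Acsl1 (mm10 chr8:46471037-46536051, plus strand) in FPC hepatocyte nuclei read 877, 1181, 1235 and 1258 in control, 986, 1024, 1306 and 2384 in mild and 482, 529 and 697 in advanced mice. All advanced mice lay below every control and every mild mouse (log2 fold change -0.88 ± 0.29, adjusted p = 0.0245, ± being the SE throughout, against control; log2 fold change -1.29 ± 0.29, adjusted p = 0.00795 against mild). Acsl1 in CDAHFD hepatocyte nuclei read 509.9, 592, 1009 and 2263 in control, 565, 686, 850.2 and 1068 in mild and 342, 441 and 487 in advanced mice. Advanced mice again lay below all others, and 1 control, CDAHFD_Control_9862, stood far above the rest (log2 fold change -1.35 ± 0.46, adjusted p = 0.0244 against control). Acsl1 in whole liver nuclei of the FPC study read 725, 955, 1004 and 1021 in control, 711, 801, 979 and 1623 in mild and 345, 394 and 518 in advanced mice. Whole liver Acsl1 with the CDAHFD read 429.6, 473, 832 and 1845 in control, 381, 485, 567 and 713 in mild and 239, 305 and 313 in advanced mice. The advanced groups were lowest there too, at -1.18 ± 0.26 (adjusted p = 0.00176) and -1.69 ± 0.46 (adjusted p = 0.00899). The Acsl1 call in FPC advanced against control was lost when 1 of mice FPC_Control_6816, FPC_Control_6852, FPC_Advanced_6826 and FPC_Advanced_6904 was left out (-0.84 to -0.77, adjusted p = 0.0524 to 0.0822) and by library total (-0.47, adjusted p = 0.184). The Acsl1 call in CDAHFD advanced against control was lost when 1 of mice CDAHFD_Advanced_9845 and CDAHFD_Advanced_9896 was left out (-1.39 to -1.22, adjusted p = 0.0581 to 0.0854), by library total (-0.86, adjusted p = 0.113) and in a fit of only both groups (-1.34, adjusted p = 0.0557).

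Cpt1a, the rate-limiting gate for long chain entry into mitochondria (chr19:3323301-3385733, plus strand), read 380.4, 445, 588 and 702 in control, 665, 807, 929.9 and 931 in mild and 446, 516 and 564 in advanced mice in FPC hepatocyte nuclei. It rose in mild mice (log2 fold change 0.74 ± 0.19, adjusted p = 0.0111) and was lower again in advanced than in mild mice (log2 fold change -0.67 ± 0.21, adjusted p = 0.0413), while advanced and control mice overlapped (0.07, adjusted p = 0.826). Cpt1a in CDAHFD hepatocyte nuclei read 422, 528, 706 and 780.5 in control, 742, 757, 762 and 928 in mild and 675, 755 and 897 in advanced mice, and the groups overlapped (0.37, adjusted p = 0.129 for advanced). Cpt1a in whole liver nuclei of the FPC study read 344, 392, 425 and 537 in control, 584, 589, 601 and 728 in mild and 389.6, 396 and 397 in advanced mice. Whole liver Cpt1a with the CDAHFD read 324, 414, 572 and 607 in control, 465, 518, 525 and 683 in mild and 474, 534 and 575 in advanced mice. The mild FPC group alone lay above its controls (log2 fold change 0.53 ± 0.13, adjusted p = 0.00571). The Cpt1a call in FPC advanced against mild was lost when 1 of mice FPC_Mild_6825, FPC_Mild_6886, FPC_Mild_6887, FPC_Advanced_6826, FPC_Advanced_6880 and FPC_Advanced_6904 was left out (-0.76 to -0.58, adjusted p = 0.0626 to 0.12), by library total (-0.50, adjusted p = 0.138) and with the gene length trend removed (-0.66, adjusted p = 0.0531). Cpt1a in CDAHFD advanced against control passed without mouse CDAHFD_Control_9862 (0.49, adjusted p = 0.0442) and by library total (0.86, adjusted p = 0.00299). Cpt1a in CDAHFD mild against control passed without mouse CDAHFD_Control_9862 (0.52, adjusted p = 0.0291), by library total (0.74, adjusted p = 0.00558) and with the gene length trend removed (0.50, adjusted p = 0.0415).

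Crat (chr2:30400476-30415748, minus strand) in FPC hepatocyte nuclei read 8.91, 12.6, 24.4 and 25 in control, 58, 61.1, 77.9 and 94.1 in mild and 31.6, 33.3 and 49.8 in advanced mice. Both diet groups lay above all controls, the mild group highest (log2 fold change 2.11 ± 0.32, adjusted p = 3.33e-04 for mild; log2 fold change 1.23 ± 0.33, adjusted p = 0.00905 for advanced). Crat in CDAHFD hepatocyte nuclei read 5.32, 7.21, 11.4 and 20.1 in control, 32.2, 33.4, 38.5 and 38.5 in mild and 23.1, 35.9 and 37.2 in advanced mice, again with no overlap between controls and either diet group (log2 fold change 1.71 ± 0.34, adjusted p = 0.00139 for mild; log2 fold change 1.56 ± 0.36, adjusted p = 0.00295 for advanced). Crat in whole liver nuclei of the FPC study read 9.85, 12.5, 17.9 and 19 in control, 35.9, 56, 61.9 and 62.9 in mild and 28.1, 31 and 36 in advanced mice. Whole liver Crat with the CDAHFD read 5.21, 6.1, 13.1 and 16.6 in control, 19.6, 21.1, 21.6 and 23.6 in mild and 17.2, 20.5 and 25.2 in advanced mice. The advanced changes there were 1.07 ± 0.24 (adjusted p = 0.00189) and 1.0 ± 0.33 (adjusted p = 0.0219). Crat in FPC advanced against mild passed with DESeq2 (-0.86, adjusted p = 0.0449) and in a fit of only both groups (-0.91, adjusted p = 0.0227). Cpt2, which rebuilds acyl-CoA inside the mitochondrion, fell in advanced mice. Its hepatocyte levels were 55 to 58.4 in FPC controls and 33.1 to 38.9 in the advanced group (log2 fold change -0.55 ± 0.11, adjusted p = 0.00122), and 44 to 53.9 against 35.5 to 38.6 in the CDAHFD study (log2 fold change -0.38 ± 0.11, adjusted p = 0.0107; the value turned to 0.11, adjusted p = 0.413, by library total). Slc25a20, the carnitine carrier, rose in FPC mild mice (log2 fold change 0.62 ± 0.16, adjusted p = 0.00873) and was lower in advanced than mild (log2 fold change -0.78 ± 0.17, adjusted p = 0.00665). The value in CDAHFD mild mice was 0.06, adjusted p = 0.786, and the difference between the studies had no call (-0.48, adjusted p = 0.189). The Cpt2 call in FPC advanced against control was lost by library total (-0.15, adjusted p = 0.352), and that in advanced against mild likewise (-0.36, adjusted p = 0.067).

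**Figure D2:**
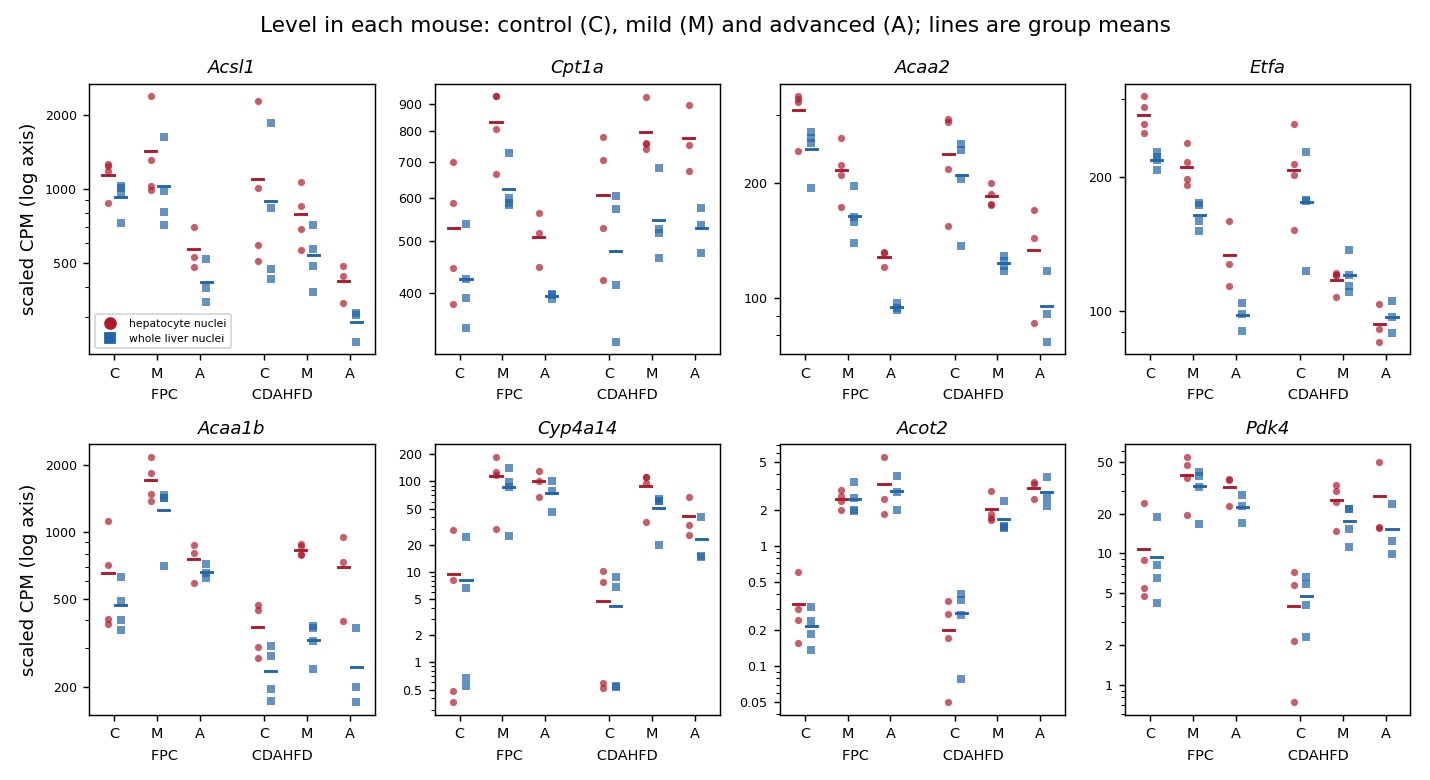
Scaled CPM (log axis) of 8 members in every mouse: control (C), mild (M) and advanced (A) of the FPC and CDAHFD studies, hepatocyte nuclei as circles and whole liver nuclei as squares, with group means as lines; the 1 library at 0, for Acot2 in a CDAHFD control, is drawn at 0.05. Acsl1 and Etfa are lowest in the advanced groups, and Acot2 in diet-fed mice lies above all controls in both fractions.

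Among the acyl-CoA dehydrogenases, which take the first step of each round, Acad11 fell in both advanced groups while Acadvl, for very long chains, rose in CDAHFD and in mild FPC hepatocyte nuclei. 1 of the 5 fell in advanced FPC mice, and 1 rose and 1 fell in advanced CDAHFD mice. Acadvl (chr11:70010183-70015428, minus strand) in FPC hepatocyte nuclei read 48, 48.3, 51.6 and 52.4 in control, 57.3, 57.8, 61.4 and 95 in mild and 28.7, 42.2 and 47.2 in advanced mice. The mild group lay above and the advanced group below the controls, but only the mild rise and the step from mild to advanced passed (log2 fold change 0.52 ± 0.19, adjusted p = 0.0461 and log2 fold change -0.75 ± 0.20, adjusted p = 0.0202; advanced against control -0.23, adjusted p = 0.385). Acadvl in CDAHFD hepatocyte nuclei read 48.3, 55.5, 57.5 and 80.3 in control, 92.3, 106, 119 and 123 in mild and 70.4, 79.9 and 97.3 in advanced mice. Mild mice all exceeded the controls (log2 fold change 0.88 ± 0.16, adjusted p = 7.46e-04), and advanced mice overlapped them (log2 fold change 0.47 ± 0.17, adjusted p = 0.0353). Acadvl in whole liver nuclei of the FPC study read 30.6, 39.5, 40.3 and 40.7 in control, 34.7, 42.1, 49.4 and 61.6 in mild and 30.3, 36.4 and 38.9 in advanced mice. Whole liver Acadvl with the CDAHFD read 31.9, 35.8, 36.4 and 52.7 in control, 35.4, 37.3, 39.1 and 49.7 in mild and 23.3, 32.8 and 41.2 in advanced mice. The groups overlapped throughout, without a call (-0.13, adjusted p = 0.549 and -0.32, adjusted p = 0.216 for advanced). Acadvl is among the shortest members, and removing the trend over gene length took its CDAHFD advanced change from 0.47 to 0.22 (adjusted p = 0.26). The Acadvl call in FPC mild against control was lost when 1 of mice FPC_Control_6816, FPC_Control_6852, FPC_Control_6952, FPC_Control_6953, FPC_Mild_6886 and FPC_Mild_6888 was left out (0.32 to 0.56, adjusted p = 0.0619 to 0.146) and with RLE size factors (0.49, adjusted p = 0.0506). The Acadvl call in FPC advanced against mild was lost without mouse FPC_Advanced_6826 (-0.56, adjusted p = 0.0668) and by library total (-0.58, adjusted p = 0.0962). The Acadvl call in CDAHFD advanced against control was lost when 1 of mice CDAHFD_Control_9867, CDAHFD_Control_10110, CDAHFD_Control_10113, CDAHFD_Advanced_9896 and CDAHFD_Advanced_10104 was left out (0.33 to 0.49, adjusted p = 0.063 to 0.166), with the gene length trend removed (0.22, adjusted p = 0.26) and in a fit of only both groups (0.48, adjusted p = 0.0594).

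Acad11, an acyl-CoA dehydrogenase family member (chr9:104063703-104127646, plus strand), in FPC hepatocyte nuclei read 428, 449.9, 501 and 603 in control, 421, 444, 491 and 509.8 in mild and 211, 228 and 265 in advanced mice. All advanced mice lay below every other mouse (log2 fold change -0.96 ± 0.15, adjusted p = 1.68e-04). Acad11 in CDAHFD hepatocyte nuclei read 356, 359, 424 and 528 in control, 324, 339, 342 and 356 in mild and 250.1, 253 and 262 in advanced mice, with advanced mice below all others (log2 fold change -0.69 ± 0.14, adjusted p = 0.00107). Acad11 in whole liver nuclei of the FPC study read 332, 373, 381 and 486 in control, 317, 331, 353 and 363 in mild and 157, 167 and 169 in advanced mice. Whole liver Acad11 with the CDAHFD read 283, 306, 367 and 431 in control, 212, 236, 242 and 281 in mild and 177, 181 and 189.6 in advanced mice. Those changes in advanced mice were -1.28 ± 0.12 (adjusted p = 2.57e-06) and -0.97 ± 0.15 (adjusted p = 1.36e-04). The Acad11 call in CDAHFD advanced against control was lost by library total (-0.20, adjusted p = 0.216). Acad11 in CDAHFD mild against control passed when 1 of mice CDAHFD_Control_9867 and CDAHFD_Control_10113 was left out (-0.36 to -0.35, adjusted p = 0.0369 to 0.0378) and with DESeq2 (-0.30, adjusted p = 0.0461). Acadm, for medium chains, read 108 to 132 in FPC controls and rose to 137 to 164 in mild mice (log2 fold change 0.33 ± 0.10, adjusted p = 0.0243) and was 108 to 116 in the advanced group (log2 fold change -0.37 ± 0.11, adjusted p = 0.0295 against mild). Against control its advanced value was -0.05 and turned to 0.35 (adjusted p = 0.0287) by library total. Acadl, for long chains, was lower in FPC advanced than mild (log2 fold change -0.44 ± 0.13, adjusted p = 0.0261), and Acads, for short chains, passed in no comparison of hepatocyte nuclei (-0.30, adjusted p = 0.325 and -0.32, adjusted p = 0.257 for advanced). The Acadm call in FPC mild against control was lost when 1 of mice FPC_Control_6952, FPC_Control_6953 and FPC_Mild_6887 was left out (0.26 to 0.32, adjusted p = 0.0588 to 0.0965). The Acadm call in FPC advanced against mild was lost when 1 of mice FPC_Mild_6886, FPC_Mild_6887, FPC_Advanced_6880 and FPC_Advanced_6904 was left out (-0.37 to -0.31, adjusted p = 0.0586 to 0.106), by library total (-0.21, adjusted p = 0.257) and in a fit of only both groups (-0.40, adjusted p = 0.0565). Acadl in FPC mild against control passed by library total (0.48, adjusted p = 0.0147). The Acadl call in FPC advanced against mild was lost when 1 of mice FPC_Mild_6887, FPC_Advanced_6826 and FPC_Advanced_6904 was left out (-0.42 to -0.36, adjusted p = 0.064 to 0.118) and by library total (-0.28, adjusted p = 0.22).

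Of the genes for hydration, dehydrogenation and thiolysis, none rose against control in hepatocyte nuclei. Echs1, the short chain enoyl-CoA hydratase, was lower in every diet group of both fractions, and Acaa2, the mitochondrial thiolase that closes each round, fell in advanced mice. In advanced mice, 2 (FPC) and 3 (CDAHFD) of the 5 fell. Echs1 (chr7:140105723-140116423, minus strand) in FPC hepatocyte nuclei read 40.5, 43.5, 49.7 and 52 in control, 23.8, 30.6, 32.3 and 32.5 in mild and 19.7, 19.9 and 23.6 in advanced mice. The 3 groups did not overlap and declined from control through mild to advanced (log2 fold change -0.56 ± 0.13, adjusted p = 0.00653 and log2 fold change -1.02 ± 0.15, adjusted p = 1.01e-04). Echs1 in CDAHFD hepatocyte nuclei read 31.6, 38.8, 41.4 and 43 in control, 21.6, 23.2, 24.1 and 24.2 in mild and 10.2, 16.3 and 17.4 in advanced mice, with the same order and advanced mice lowest (log2 fold change -0.72 ± 0.16, adjusted p = 0.0022 and log2 fold change -1.38 ± 0.18, adjusted p = 4.38e-05). Echs1 in whole liver nuclei of the FPC study read 34.6, 35.2, 37.9 and 47.2 in control, 21.4, 22.9, 25.3 and 30.6 in mild and 17.2, 18.5 and 20 in advanced mice. Whole liver Echs1 with the CDAHFD read 27.2, 34.9, 38.7 and 39.2 in control, 17.3, 19.8, 21 and 22.6 in mild and 11.7, 12.8 and 14.8 in advanced mice. Both were ordered as in hepatocyte nuclei (log2 fold change -1.09 ± 0.16, adjusted p = 6.54e-05 and log2 fold change -1.46 ± 0.16, adjusted p = 5.75e-06 for advanced). Its promoter, printed above, is one of those with a match to the repeat. The Echs1 call in FPC mild against control was lost by library total (-0.32, adjusted p = 0.103). The Echs1 call in FPC advanced against mild was lost when 1 of mice FPC_Mild_6825, FPC_Mild_6886, FPC_Mild_6887, FPC_Advanced_6826 and FPC_Advanced_6880 was left out (-0.45 to -0.40, adjusted p = 0.0782 to 0.16), with RLE size factors (-0.44, adjusted p = 0.0568), by library total (-0.30, adjusted p = 0.227), with the gene length trend removed (-0.41, adjusted p = 0.0732) and in a fit of only both groups (-0.48, adjusted p = 0.0737). The Echs1 call in CDAHFD mild against control was lost by library total (-0.38, adjusted p = 0.0726).

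Acaa2 (chr18:74779212-74806207, plus strand) in FPC hepatocyte nuclei read 243, 325, 332 and 337 in control, 173, 209, 222 and 262 in mild and 121, 131 and 132 in advanced mice. Advanced mice lay far below the controls, and mild mice overlapped them through 1 low control, FPC_Control_6953 (log2 fold change -1.15 ± 0.16, adjusted p = 6.20e-05 for advanced; log2 fold change -0.43 ± 0.14, adjusted p = 0.0345 for mild). Acaa2 in CDAHFD hepatocyte nuclei read 154, 218, 288 and 294 in control, 175, 176, 187 and 199.99 in mild and 85.9, 144 and 170.03 in advanced mice, where advanced and control mice overlapped through control CDAHFD_Control_10113 (log2 fold change -0.82 ± 0.24, adjusted p = 0.0123). Acaa2 in whole liver nuclei of the FPC study read 194, 254, 262 and 272 in control, 139, 158, 163 and 196 in mild and 92.9, 94.1 and 97.3 in advanced mice. Whole liver Acaa2 with the CDAHFD read 137, 205, 243 and 253 in control, 118, 122, 125 and 128 in mild and 77, 90.9 and 117 in advanced mice. The advanced groups were lowest (log2 fold change -1.4 ± 0.14, adjusted p = 3.07e-06 and log2 fold change -1.18 ± 0.19, adjusted p = 2.16e-04). The Acaa2 call in FPC mild against control was lost when 1 of mice FPC_Control_6816, FPC_Control_6852, FPC_Control_6952, FPC_Mild_6886, FPC_Mild_6887 and FPC_Mild_6888 was left out (-0.44 to -0.34, adjusted p = 0.0587 to 0.104) and by library total (-0.20, adjusted p = 0.311). The Acaa2 call in CDAHFD advanced against control was lost by library total (-0.33, adjusted p = 0.282). Acaa2 in CDAHFD mild against control passed without mouse CDAHFD_Control_10113 (-0.52, adjusted p = 0.0408). Hadha and Hadhb encode the trifunctional protein of long chain oxidation, and Hadh the short chain hydroxyacyl-CoA dehydrogenase. None of the 3 was called in the FPC study of hepatocyte nuclei (advanced -0.05, -0.04 and -0.18). In the CDAHFD study Hadhb fell in mild mice (log2 fold change -0.86 ± 0.29, adjusted p = 0.0259) and Hadh in the advanced group (log2 fold change -0.73 ± 0.23, adjusted p = 0.0167), while Hadha stayed uncalled (-0.10, adjusted p = 0.749). Control CDAHFD_Control_9862 was the highest CDAHFD control for Hadhb, where the controls read 54.8 to 177 and the mild mice 43.9 to 61.2. Hadhb in CDAHFD advanced against control passed without mouse CDAHFD_Control_10113 (-0.92, adjusted p = 0.0144) and with DESeq2 (-0.71, adjusted p = 0.048). The Hadhb call in CDAHFD mild against control was lost when 1 of mice CDAHFD_Mild_9852 and CDAHFD_Mild_10102 was left out (-0.84 to -0.79, adjusted p = 0.0585 to 0.0627) and by library total (-0.51, adjusted p = 0.149). The Hadh call in CDAHFD advanced against control was lost when 1 of mice CDAHFD_Advanced_9845 and CDAHFD_Advanced_9896 was left out (-0.65 to -0.64, adjusted p = 0.0662 to 0.0677) and by library total (-0.25, adjusted p = 0.384). Hadh in CDAHFD mild against control passed without mouse CDAHFD_Control_10113 (-0.54, adjusted p = 0.0194). Hadh in FPC mild against control passed by library total (0.47, adjusted p = 0.0294). Hadha in FPC mild against control passed by library total (0.58, adjusted p = 0.0209).

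The auxiliary enzymes that handle double bonds of unsaturated fatty acids split in direction. Ech1, a dienoyl-CoA isomerase, rose in mild mice of both studies and in advanced CDAHFD mice, whereas Decr1, the mitochondrial dienoyl-CoA reductase, fell in CDAHFD mice. Ech1 (chr7:28825338-28832239, plus strand) in FPC hepatocyte nuclei read 19.3, 19.99, 28 and 33.8 in control, 42.4, 43.7, 53.1 and 68.7 in mild and 21.3, 31.5 and 43.2 in advanced mice, and only the mild group cleared the controls (log2 fold change 1.12 ± 0.25, adjusted p = 0.00374; advanced 0.46, adjusted p = 0.176). Ech1 in CDAHFD hepatocyte nuclei read 18.1, 33.8, 37.6 and 49.4 in control, 70.9, 86.7, 93.1 and 97 in mild and 51.4, 68 and 74.9 in advanced mice, and both diet groups lay above every control (log2 fold change 1.34 ± 0.25, adjusted p = 8.11e-04 and log2 fold change 0.92 ± 0.26, adjusted p = 0.00999). Ech1 in whole liver nuclei of the FPC study read 18.2, 19.7, 20.04 and 23.6 in control, 27, 38.6, 43.6 and 43.9 in mild and 22, 28.7 and 32.2 in advanced mice. Whole liver Ech1 with the CDAHFD read 15.2, 25.5, 26 and 37.8 in control, 32.2, 32.4, 37.1 and 39.3 in mild and 20.4, 28.2 and 33 in advanced mice. The CDAHFD rise of hepatocyte nuclei was thus not called in whole liver (0.36, adjusted p = 0.208 for mild, 0.02, adjusted p = 0.96 for advanced); the difference between fractions in the advanced change was 0.81 ± 0.39 (adjusted p = 0.214). Ech1 in FPC advanced against control passed without mouse FPC_Advanced_6826 (0.68, adjusted p = 0.0477) and by library total (0.87, adjusted p = 0.0259).

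Decr1 (chr4:15917240-15945507, minus strand) in FPC hepatocyte nuclei read 111, 134, 136 and 176 in control, 129, 154, 196 and 245 in mild and 112, 115 and 127 in advanced mice, with no call against control (0.47, adjusted p = 0.0807 for mild and -0.12, adjusted p = 0.679 for advanced). Decr1 in CDAHFD hepatocyte nuclei read 121, 125, 134 and 174 in control, 95.7, 104, 107 and 109 in mild and 72.3, 85.6 and 96.8 in advanced mice, with all diet-fed mice below the controls (log2 fold change -0.40 ± 0.13, adjusted p = 0.0191 and log2 fold change -0.69 ± 0.14, adjusted p = 0.00133). Decr1 in whole liver nuclei of the FPC study read 90.4, 102, 110.2 and 142 in control, 109, 122, 146 and 192 in mild and 80.3, 85.8 and 88.7 in advanced mice. Whole liver Decr1 with the CDAHFD read 98.2, 106, 112 and 142 in control, 91.7, 92.1, 93.2 and 98.5 in mild and 63.8, 76.1 and 86.3 in advanced mice. The advanced groups were lowest (log2 fold change -0.42 ± 0.18, adjusted p = 0.068 and log2 fold change -0.65 ± 0.13, adjusted p = 0.00119). The mild CDAHFD value of -0.36, adjusted p = 0.024 turned to 0.02, adjusted p = 0.912, by library total. The mild changes of the 2 studies differed (-0.79 ± 0.24, adjusted p = 0.0362; 12.2% of all genes called, 5.59% higher and 6.64% lower). The Decr1 call in the difference between mild changes was lost when 1 of mice FPC_Control_6816, FPC_Control_6952, FPC_Control_6953, FPC_Mild_6825, FPC_Mild_6887, CDAHFD_Control_9862, CDAHFD_Mild_9852, CDAHFD_Mild_9853 and CDAHFD_Mild_9894 was left out (-0.80 to -0.61, adjusted p = 0.0547 to 0.0835). Decr1 in FPC mild against control passed when 1 of mice FPC_Control_6852 and FPC_Mild_6886 was left out (0.60, adjusted p = 0.0238 to 0.039) and by library total (0.70, adjusted p = 0.0111). Decr1 in FPC advanced against mild passed without mouse FPC_Mild_6886 (-0.72, adjusted p = 0.024). The Decr1 call in CDAHFD advanced against control was lost by library total (-0.20, adjusted p = 0.241). The Decr1 call in CDAHFD mild against control was lost without mouse CDAHFD_Mild_9853 (-0.37, adjusted p = 0.0563) and by library total (-0.06, adjusted p = 0.719). Eci1, the enoyl-CoA isomerase, read 30.4 to 48.2 in FPC controls, rose to 60.8 to 86.8 in mild mice (log2 fold change 0.85 ± 0.17, adjusted p = 0.00202) and read 39.97 to 42.8 in the advanced group (log2 fold change -0.70 ± 0.19, adjusted p = 0.0188 against mild). Eci1 in FPC advanced against control passed by library total (0.55, adjusted p = 0.0313). The Eci1 call in FPC advanced against mild was lost when 1 of mice FPC_Advanced_6880 and FPC_Advanced_6904 was left out (-0.68, adjusted p = 0.0619 to 0.0674) and by library total (-0.53, adjusted p = 0.078).

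The electron transfer flavoprotein collects electrons from the acyl-CoA dehydrogenases; Etfa and Etfb are its subunits, and Etfdh passes the electrons on to ubiquinone. Etfa and Etfb fell in both advanced groups, and all 3 genes fell in mild and advanced CDAHFD mice. Etfa (chr9:55454436-55512243, minus strand) in FPC hepatocyte nuclei read 251, 264, 288 and 305 in control, 192, 199, 217 and 239 in mild and 114, 128 and 159 in advanced mice. The groups did not overlap, and the advanced group was lowest (log2 fold change -0.93 ± 0.13, adjusted p = 9.06e-05; mild -0.30, adjusted p = 0.0718). Etfa in CDAHFD hepatocyte nuclei read 152, 202, 214 and 263 in control, 108, 120.5, 121 and 122 in mild and 85.5, 91.3 and 104 in advanced mice, again in 3 separate ranges (log2 fold change -0.81 ± 0.14, adjusted p = 5.93e-04 and log2 fold change -1.13 ± 0.16, adjusted p = 8.79e-05). Etfa in whole liver nuclei of the FPC study read 207, 219, 222 and 228 in control, 152, 159.8, 173 and 175 in mild and 90.3, 98.8 and 104 in advanced mice. Whole liver Etfa with the CDAHFD read 123, 177, 178 and 228 in control, 111, 114, 121 and 137 in mild and 89.2, 97 and 106 in advanced mice. The advanced changes were -1.19 ± 0.10 (adjusted p = 7.74e-07) and -0.90 ± 0.17 (adjusted p = 6.39e-04). Its printed promoter carries the other match to the repeat. Etfa in FPC mild against control passed with the gene length trend removed (-0.34, adjusted p = 0.0255), with DESeq2 (-0.33, adjusted p = 0.0389) and in a fit of only both groups (-0.32, adjusted p = 0.0381).

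Etfdh (chr3:79603788-79628767, minus strand) in FPC hepatocyte nuclei read 69.1, 76.8, 82.1 and 88.2 in control, 74.4, 87.8, 92.1 and 111 in mild and 48.9, 59.6 and 65.5 in advanced mice. Advanced mice lay below all controls, without a call (-0.32, adjusted p = 0.0978), and below the mild mice with one (log2 fold change -0.62 ± 0.15, adjusted p = 0.0127). Etfdh in CDAHFD hepatocyte nuclei read 64.5, 76.7, 77.4 and 117 in control, 46.9, 56.4, 56.7 and 61.4 in mild and 37.3, 38.9 and 54 in advanced mice, with both diet groups below every control (log2 fold change -0.59 ± 0.18, adjusted p = 0.0158 and log2 fold change -0.94 ± 0.20, adjusted p = 0.00178). Etfdh in whole liver nuclei of the FPC study read 62.1, 68.7, 75.7 and 76.3 in control, 60.3, 68.2, 71.1 and 91.9 in mild and 40.2, 46.6 and 46.8 in advanced mice. Whole liver Etfdh with the CDAHFD read 56.6, 76.9, 79.3 and 125 in control, 36.9, 42.2, 43.1 and 47.5 in mild and 28.4, 36 and 39.2 in advanced mice. The advanced groups fell there too (log2 fold change -0.70 ± 0.14, adjusted p = 0.00103 and log2 fold change -1.33 ± 0.22, adjusted p = 2.40e-04). Its mild change differed between the studies (-0.80 ± 0.24, adjusted p = 0.0348). The Etfdh call in the difference between mild changes was lost when 1 of mice FPC_Control_6816, FPC_Control_6852, FPC_Control_6952, FPC_Mild_6825, FPC_Mild_6887, CDAHFD_Control_9862, CDAHFD_Mild_9852, CDAHFD_Mild_9894 and CDAHFD_Mild_10102 was left out (-0.82 to -0.60, adjusted p = 0.051 to 0.0777). Etfdh in FPC mild against control passed by library total (0.53, adjusted p = 0.00466). The Etfdh call in FPC advanced against mild was lost without mouse FPC_Advanced_6880 (-0.49, adjusted p = 0.0691). The Etfdh call in CDAHFD advanced against control was lost by library total (-0.45, adjusted p = 0.068). The Etfdh call in CDAHFD mild against control was lost by library total (-0.24, adjusted p = 0.263). Etfb read 62.3 to 77.4 in FPC controls and 34.7 to 46.1 in the advanced group (log2 fold change -0.60 ± 0.15, adjusted p = 0.00498). With the CDAHFD, the same groups read 62.6 to 75.7 and 37.3 to 59.3 (log2 fold change -0.53 ± 0.14, adjusted p = 0.00588). In mild mice it fell with the CDAHFD only (log2 fold change -0.44 ± 0.13, adjusted p = 0.011; FPC -0.25, adjusted p = 0.188), and the difference between these mild changes was -0.11 ± 0.18 (adjusted p = 0.722). The Etfb call in FPC advanced against control was lost by library total (-0.20, adjusted p = 0.321). The Etfb call in CDAHFD advanced against control was lost by library total (-0.03, adjusted p = 0.846). The Etfb call in CDAHFD mild against control was lost by library total (-0.09, adjusted p = 0.551).

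Of the 5 peroxisomal genes, 3 (FPC) and 2 (CDAHFD) rose in mild mice. Ehhadh, the bifunctional hydratase and dehydrogenase, and the thiolases Acaa1a and Acaa1b were raised in mild FPC mice, and both thiolases in mild CDAHFD mice. In advanced mice, 1 of the 5 fell in the FPC study (Decr2) and 1 rose in the CDAHFD study (Acaa1b). Ehhadh (chr16:21761285-21787834, minus strand) in FPC hepatocyte nuclei read 68.1, 70.2, 77.7 and 107 in control, 103, 110.1, 129 and 189 in mild and 63.8, 104 and 176 in advanced mice, with overlap of all groups (log2 fold change 0.80 ± 0.29, adjusted p = 0.0486 for mild; 0.63, adjusted p = 0.112 for advanced). Ehhadh in CDAHFD hepatocyte nuclei read 17.4, 24.4, 52.4 and 54.1 in control, 31.5, 34.2, 42 and 53.4 in mild and 40.7, 52.4 and 52.7 in advanced mice, also overlapping (0.13, adjusted p = 0.753 and 0.41, adjusted p = 0.335). Ehhadh in whole liver nuclei of the FPC study read 59.1, 63.3, 72.4 and 85.4 in control, 86.9, 103, 110.01 and 141 in mild and 59.9, 81.7 and 148 in advanced mice. Whole liver Ehhadh with the CDAHFD read 18.3, 22.9, 49.4 and 58 in control, 31.3, 33.4, 37.8 and 49.3 in mild and 32.8, 43.7 and 52.8 in advanced mice. Only the mild FPC mice cleared their controls there (0.63, adjusted p = 0.0535). Ehhadh in FPC advanced against control passed without mouse FPC_Advanced_6826 (0.92, adjusted p = 0.0162) and by library total (1.07, adjusted p = 0.0113). The Ehhadh call in FPC mild against control was lost when 1 of mice FPC_Control_6816, FPC_Control_6852, FPC_Control_6952, FPC_Mild_6825, FPC_Mild_6886 and FPC_Mild_6887 was left out (0.58 to 0.88, adjusted p = 0.0551 to 0.135), with RLE size factors (0.78, adjusted p = 0.0567), with no filter on low counts (0.80, adjusted p = 0.0667) and with the gene length trend removed (0.78, adjusted p = 0.058). Ehhadh in CDAHFD advanced against control passed by library total (0.90, adjusted p = 0.0449).

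Acaa1a (chr9:119341294-119350295, plus strand) and Acaa1b (chr9:119148043-119157093, minus strand) are near copies. Their spliced GENCODE transcripts, matched by RefSeq accession, are identical at 92.9% of 1637 aligned bases, and 34% of the 50-base windows of the first occur in the second. The counted lengths, 9002 and 9051 bases, include introns, which were not compared. Reads from shared stretches may have been split between the 2 genes, so their separate levels are uncertain. Acaa1a in FPC hepatocyte nuclei read 96.7, 128, 140.4 and 164 in control, 151, 170.1, 204 and 253 in mild and 66.4, 93 and 122 in advanced mice. Mild mice were highest and advanced mice lowest (log2 fold change 0.64 ± 0.22, adjusted p = 0.0382 for mild against control; log2 fold change -1.01 ± 0.24, adjusted p = 0.00948 for advanced against mild). Acaa1a in CDAHFD hepatocyte nuclei read 71, 117, 138 and 148 in control, 213, 227, 237 and 269 in mild and 101, 168 and 199 in advanced mice, where the mild group lay above both others (log2 fold change 1.01 ± 0.24, adjusted p = 0.00351; advanced 0.41, adjusted p = 0.177). Acaa1a in whole liver nuclei of the FPC study read 87.4, 99.5, 109 and 123 in control, 87.5, 158, 165 and 166 in mild and 68.2, 81.5 and 93.9 in advanced mice. Whole liver Acaa1a with the CDAHFD read 55.3, 95.5, 98.2 and 106 in control, 89.5, 99.9, 107 and 113 in mild and 47.9, 66.8 and 85.7 in advanced mice. Mild mice had no call against control (0.43, adjusted p = 0.088 and 0.13, adjusted p = 0.622). The Acaa1a call in FPC mild against control was lost when 1 of mice FPC_Control_6852, FPC_Control_6952, FPC_Control_6953, FPC_Mild_6886 and FPC_Mild_6887 was left out (0.49 to 0.67, adjusted p = 0.0623 to 0.113). Acaa1a in CDAHFD advanced against control passed without mouse CDAHFD_Advanced_9845 (0.64, adjusted p = 0.0376) and by library total (0.90, adjusted p = 0.0104). Acaa1b in FPC hepatocyte nuclei read 387, 406, 712 and 1122 in control, 1387, 1489, 1847 and 2192 in mild and 592, 807 and 875 in advanced mice. The mild group lay above all others (log2 fold change 1.47 ± 0.32, adjusted p = 0.00328), and advanced mice overlapped the controls (0.32, adjusted p = 0.457). Acaa1b in CDAHFD hepatocyte nuclei read 269, 305, 444 and 469 in control, 793, 797, 865 and 886 in mild and 396, 736 and 950.5 in advanced mice. It rose in both stages (log2 fold change 1.18 ± 0.25, adjusted p = 0.00187 and log2 fold change 0.92 ± 0.26, adjusted p = 0.0104), with 1 advanced mouse, CDAHFD_Advanced_9845, inside the control range. Acaa1b in whole liver nuclei of the FPC study read 361, 399.8, 491 and 627 in control, 701, 1421, 1428 and 1477 in mild and 623, 655 and 716 in advanced mice. Whole liver Acaa1b with the CDAHFD read 173, 197, 275 and 306 in control, 243, 322, 369 and 377 in mild and 171, 201 and 369 in advanced mice. The FPC mild change was called there (log2 fold change 1.39 ± 0.23, adjusted p = 4.44e-04), and CDAHFD mild mice gave 0.38, adjusted p = 0.229. Acaa1b in FPC advanced against control passed without mouse FPC_Control_6816 (0.72, adjusted p = 0.048). The Acaa1b call in FPC advanced against mild was lost when 1 of mice FPC_Mild_6886, FPC_Mild_6887, FPC_Advanced_6826, FPC_Advanced_6880 and FPC_Advanced_6904 was left out (-1.27 to -0.99, adjusted p = 0.0603 to 0.113) and by library total (-0.98, adjusted p = 0.0835). The Acaa1b call in CDAHFD advanced against control was lost without mouse CDAHFD_Advanced_9896 (0.62, adjusted p = 0.0706). Decr2, the peroxisomal dienoyl-CoA reductase, read 53.4 to 80.7 in FPC controls and fell, to 38.5 to 44.3, in the advanced group (log2 fold change -0.51 ± 0.17, adjusted p = 0.0252), and Eci2, an isomerase, was lower in FPC advanced than in mild mice (log2 fold change -0.93 ± 0.24, adjusted p = 0.0145). Neither was called in the CDAHFD study of hepatocyte nuclei (-0.52, adjusted p = 0.122 and -0.22, adjusted p = 0.593 for advanced). The Decr2 call in FPC advanced against control was lost when 1 of mice FPC_Control_6816, FPC_Control_6852, FPC_Advanced_6826 and FPC_Advanced_6904 was left out (-0.52 to -0.37, adjusted p = 0.0551 to 0.077) and by library total (-0.11, adjusted p = 0.637). The Decr2 call in FPC advanced against mild was lost when 1 of mice FPC_Advanced_6826 and FPC_Advanced_6904 was left out (-0.65 to -0.59, adjusted p = 0.0507 to 0.0544) and by library total (-0.48, adjusted p = 0.0857). Decr2 in CDAHFD advanced against control passed when 1 of mice CDAHFD_Control_10113 and CDAHFD_Advanced_10104 was left out (-0.83 to -0.72, adjusted p = 0.0102 to 0.0276). Eci2 in FPC advanced against control passed without mouse FPC_Control_6953 (-0.62, adjusted p = 0.0447). Eci2 in FPC mild against control passed by library total (0.67, adjusted p = 0.0307). The Eci2 call in FPC advanced against mild was lost without mouse FPC_Advanced_6904 (-0.79, adjusted p = 0.0705). Eci2 in CDAHFD mild against control passed without mouse CDAHFD_Control_9862 (0.87, adjusted p = 0.00121).

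Omega oxidation showed wide control ranges. Cyp4a14, a fatty acid omega-hydroxylase, rose in both studies and both stages, while its neighbour Cyp4a10 was called in none. In the FPC controls, mice FPC_Control_6816 and FPC_Control_6852 had high levels of both and mice FPC_Control_6952 and FPC_Control_6953 low ones. Cyp4a10 (chr4:115518287-115533649, plus strand) in FPC hepatocyte nuclei read 1.44, 1.8, 13.4 and 39.8 in control, 47.2, 52.4, 54 and 124 in mild and 32.9, 35.4 and 126 in advanced mice. Mild mice lay above all controls, yet neither change passed (log2 fold change 2.35 ± 0.93, adjusted p = 0.0782 and log2 fold change 2.29 ± 0.97, adjusted p = 0.0775). Cyp4a10 in CDAHFD hepatocyte nuclei read 0.537, 3.95, 11.9 and 52 in control, 46.2, 55.3, 108 and 113 in mild and 22.5, 24.6 and 28.4 in advanced mice, where CDAHFD_Control_9862 overlapped both diet groups (log2 fold change 2.25 ± 0.91, adjusted p = 0.0556 and log2 fold change 0.58 ± 0.95, adjusted p = 0.622). Cyp4a10 in whole liver nuclei of the FPC study read 1.84, 2.15, 12.5 and 33.8 in control, 38.7, 39.3, 40.5 and 89.6 in mild and 28.1, 30.1 and 102 in advanced mice. Whole liver Cyp4a10 with the CDAHFD read 1.76, 2.76, 11 and 46 in control, 24.5, 35.6, 53.4 and 71.1 in mild and 11.4, 13.4 and 19.9 in advanced mice. The high CDAHFD control there was the library labelled CDAHFD_Control_9867, one of the pair described above. Cyp4a10 in FPC advanced against control passed without mouse FPC_Control_6816 (3.67, adjusted p = 0.00904) and by library total (2.69, adjusted p = 0.0383). Cyp4a10 in FPC mild against control passed without mouse FPC_Control_6816 (3.73, adjusted p = 0.0113). Cyp4a10 in CDAHFD advanced against control passed without mouse CDAHFD_Control_9862 (2.25, adjusted p = 0.0231). Cyp4a10 in CDAHFD mild against control passed without mouse CDAHFD_Control_9862 (3.91, adjusted p = 0.00159), by library total (2.6, adjusted p = 0.0283) and with DESeq2 (2.23, adjusted p = 0.0398).

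Cyp4a14 (chr4:115486200-115496141, minus strand) in FPC hepatocyte nuclei read 0.361, 0.479, 8.12 and 28.8 in control, 29.9, 119, 129 and 188 in mild and 68, 102 and 131 in advanced mice. Every diet-fed mouse exceeded every control (log2 fold change 3.67 ± 1.08, adjusted p = 0.0243 and log2 fold change 3.5 ± 1.11, adjusted p = 0.0241). Cyp4a14 in CDAHFD hepatocyte nuclei read 0.515, 0.586, 7.71 and 10.3 in control, 35.3, 96.3, 111 and 112 in mild and 25.7, 32.8 and 66.8 in advanced mice, with the same separation (log2 fold change 4.24 ± 0.86, adjusted p = 0.00182 and log2 fold change 3.16 ± 0.86, adjusted p = 0.00869). Cyp4a14 in whole liver nuclei of the FPC study read 0.545, 0.667, 6.69 and 24.3 in control, 25.1, 86.7, 98.8 and 139.7 in mild and 45.9, 77.7 and 100.3 in advanced mice. Whole liver Cyp4a14 with the CDAHFD read 0.534, 0.549, 6.73 and 8.86 in control, 19.9, 60.8, 61.1 and 63.8 in mild and 14.6, 15.1 and 40.4 in advanced mice. Diet-fed mice again lay above all controls (log2 fold change 3.18 ± 0.99, adjusted p = 0.0176 and log2 fold change 2.46 ± 0.86, adjusted p = 0.0332 for advanced). Its spliced transcript shares 73.3% of aligned bases with Cyp4a10 and no 50-base window. Introns and other close Cyp4a genes were not compared. The Cyp4a14 call in FPC advanced against control was lost when 1 of mice FPC_Control_6852 and FPC_Advanced_6880 was left out (3.27 to 3.43, adjusted p = 0.0589 to 0.0601). The Cyp4a14 call in FPC mild against control was lost when 1 of mice FPC_Control_6852 and FPC_Mild_6887 was left out (3.33 to 3.6, adjusted p = 0.0541 to 0.0621) and with no filter on low counts (3.67, adjusted p = 0.0517).

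Ketone steps were measured through Acat1, the mitochondrial acetoacetyl-CoA thiolase, and Bdh1, which interconverts acetoacetate and beta-hydroxybutyrate. Acat1 fell in advanced mice of both studies, and more with the CDAHFD; Bdh1 was not called against control in hepatocyte nuclei. Acat1 (chr9:53580522-53610350, minus strand) in FPC hepatocyte nuclei read 149, 174, 175 and 177 in control, 171, 173, 201 and 202 in mild and 119.5, 130.2 and 130.2 in advanced mice. Advanced mice lay below all others (log2 fold change -0.29 ± 0.11, adjusted p = 0.0477, turning to 0.10 with adjusted p = 0.476 by library total). Acat1 in CDAHFD hepatocyte nuclei read 149.97, 192, 241 and 254 in control, 132, 138, 142 and 149.8 in mild and 85.7, 96 and 114 in advanced mice. The groups did not overlap (log2 fold change -0.57 ± 0.16, adjusted p = 0.00861 and log2 fold change -1.07 ± 0.17, adjusted p = 2.37e-04). Acat1 in whole liver nuclei of the FPC study read 117, 137, 151 and 152 in control, 133, 135, 149 and 149.7 in mild and 87.8, 88.3 and 98.8 in advanced mice. Whole liver Acat1 with the CDAHFD read 126, 166, 206 and 207 in control, 107, 115, 116 and 125 in mild and 69, 73.1 and 93.6 in advanced mice. Acat1 fell in both advanced groups (log2 fold change -0.63 ± 0.11, adjusted p = 2.87e-04 and log2 fold change -1.21 ± 0.17, adjusted p = 6.69e-05). The CDAHFD groups were again in 3 separate ranges. The Acat1 call in FPC advanced against control was lost when 1 of mice FPC_Control_6816, FPC_Control_6852, FPC_Control_6952, FPC_Advanced_6826, FPC_Advanced_6880 and FPC_Advanced_6904 was left out (-0.33 to -0.25, adjusted p = 0.0656 to 0.138), with RLE size factors (-0.30, adjusted p = 0.054), with no filter on low counts (-0.30, adjusted p = 0.0578), with a stricter filter on low counts (-0.27, adjusted p = 0.0634), by library total (0.10, adjusted p = 0.476) and in a fit of only both groups (-0.29, adjusted p = 0.0713). Acat1 in FPC mild against control passed by library total (0.47, adjusted p = 0.00503). The Acat1 call in CDAHFD mild against control was lost by library total (-0.23, adjusted p = 0.244). Acat1 was the only member whose advanced change differed between the studies (-0.72 ± 0.20, adjusted p = 0.0261; 11.9% of all genes called, 4.5% higher and 7.36% lower), and its mild change differed too (-0.72 ± 0.19, adjusted p = 0.0186). The call on the advanced difference was lost when 1 of mice FPC_Advanced_6826, FPC_Advanced_6904, CDAHFD_Advanced_9845 and CDAHFD_Advanced_9896 was left out (-0.71 to -0.63, adjusted p = 0.0501 to 0.0782); the mild difference held whichever mouse was left out.

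Bdh1 (chr16:31422297-31458901, plus strand) in FPC hepatocyte nuclei read 118, 149, 154 and 212 in control, 167, 202, 204 and 245 in mild and 105, 107 and 139 in advanced mice. It was lower in advanced than in mild mice (log2 fold change -0.76 ± 0.20, adjusted p = 0.0165), and neither group was called against control (0.45, adjusted p = 0.0728 and -0.31, adjusted p = 0.219). Bdh1 in CDAHFD hepatocyte nuclei read 106, 217, 223 and 244 in control, 159, 178, 218 and 241 in mild and 141, 147 and 196 in advanced mice, with overlap throughout (0.02, adjusted p = 0.947 and -0.27, adjusted p = 0.372). Bdh1 in whole liver nuclei of the FPC study read 103, 104, 128 and 154 in control, 105, 139, 151 and 176 in mild and 79.9, 84.6 and 93.7 in advanced mice. Whole liver Bdh1 with the CDAHFD read 89.8, 168, 169 and 197 in control, 106, 121, 145 and 161 in mild and 97.6, 109 and 110.04 in advanced mice. FPC advanced mice lay below all controls (log2 fold change -0.53 ± 0.18, adjusted p = 0.022). Bdh1 in FPC mild against control passed when 1 of mice FPC_Control_6852 and FPC_Mild_6825 was left out (0.54 to 0.63, adjusted p = 0.0146 to 0.0426) and by library total (0.69, adjusted p = 0.0133). The Bdh1 call in FPC advanced against mild was lost when 1 of mice FPC_Mild_6887, FPC_Advanced_6826 and FPC_Advanced_6880 was left out (-0.69 to -0.66, adjusted p = 0.0517 to 0.0709) and by library total (-0.60, adjusted p = 0.0612). Bdh1 in CDAHFD advanced against control passed without mouse CDAHFD_Control_10113 (-0.48, adjusted p = 0.0311).

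The thioesterases, which release free fatty acids from acyl-CoA, rose from low levels. Acot2, the mitochondrial form, rose in every diet group from very low control levels, and Acot1, the cytosolic form, in 3 of the 4. Their spliced transcripts are identical at 81.7% of 2004 aligned bases and 23.7% of 50-base windows of Acot1 occur in Acot2, so reads may have been split between them. Introns were not compared. Acot1 (chr12:84009502-84017669, plus strand) in FPC hepatocyte nuclei read 0.419, 0.876, 1.99 and 2.44 in control, 4.65, 5.53, 6.66 and 9.94 in mild and 3.6, 4.07 and 5.7 in advanced mice. Every diet-fed mouse exceeded every control (log2 fold change 2.3 ± 0.43, adjusted p = 0.00121 and log2 fold change 1.75 ± 0.45, adjusted p = 0.00621). Acot1 in CDAHFD hepatocyte nuclei read 0.301, 0.472, 0.684 and 1.08 in control, 0.751, 1.15, 1.18 and 1.83 in mild and 0.978, 1.88 and 3.43 in advanced mice, with overlap of the groups and a call in advanced mice only (log2 fold change 0.97 ± 0.49, adjusted p = 0.109 and log2 fold change 1.76 ± 0.51, adjusted p = 0.0101). Acot1 in whole liver nuclei of the FPC study read 0.444, 0.613, 1.86 and 3.08 in control, 5.03, 5.26, 6.86 and 7.41 in mild and 3.22, 3.66 and 5.31 in advanced mice. Whole liver Acot1 with the CDAHFD read 0.353, 0.713, 0.94 and 2.89 in control, 0.912, 1.01, 1.13 and 2 in mild and 1.24, 1.79 and 2.15 in advanced mice. The rise passed in the advanced FPC group (log2 fold change 1.4 ± 0.47, adjusted p = 0.0225) and the CDAHFD one did not (0.49, adjusted p = 0.469). The Acot1 call in CDAHFD advanced against control was lost without mouse CDAHFD_Advanced_9845 (1.24, adjusted p = 0.056). Acot1 in CDAHFD mild against control passed without mouse CDAHFD_Control_10110 (1.32, adjusted p = 0.0487) and by library total (1.31, adjusted p = 0.0362).

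Acot2 (chr12:83987861-83993875, plus strand) in FPC hepatocyte nuclei read 0.155, 0.242, 0.299 and 0.611 in control, 1.98, 2.38, 2.63 and 2.94 in mild and 1.85, 2.45 and 5.55 in advanced mice. All diet-fed mice lay above all controls (log2 fold change 3.02 ± 0.45, adjusted p = 2.69e-04 and log2 fold change 3.45 ± 0.47, adjusted p = 5.39e-05). Acot2 in CDAHFD hepatocyte nuclei read 0, 0.172, 0.27 and 0.352 in control, 1.66, 1.73, 1.85 and 2.88 in mild and 2.48, 3.29 and 3.42 in advanced mice, separated in the same way (log2 fold change 3.35 ± 0.51, adjusted p = 2.07e-04 and log2 fold change 3.95 ± 0.53, adjusted p = 5.91e-05). Acot2 in whole liver nuclei of the FPC study read 0.136, 0.185, 0.237 and 0.311 in control, 1.97, 1.98, 2.54 and 3.42 in mild and 2, 2.81 and 3.86 in advanced mice. Whole liver Acot2 with the CDAHFD read 0.0784, 0.267, 0.358 and 0.396 in control, 1.43, 1.43, 1.48 and 2.38 in mild and 2.16, 2.53 and 3.73 in advanced mice. Diet-fed mice lay above all controls there too (log2 fold change 3.61 ± 0.35, adjusted p = 2.48e-06 and log2 fold change 3.33 ± 0.41, adjusted p = 1.82e-05 for advanced). Its calls in hepatocyte nuclei held whichever mouse was left out, with other filters, RLE size factors, library total, the length trend removed and DESeq2, and in fits of only both groups.

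Of the regulators and further PPAR-alpha targets, Pdk4 rose and Ppargc1a fell in advanced mice of both studies, while Vnn1 was called in the mild groups. Pdk4 is the kinase that shuts pyruvate dehydrogenase, and Ppargc1a is a coactivator of oxidative genes. Ppargc1a (chr5:51454249-51553921, minus strand) in FPC hepatocyte nuclei read 117, 124, 155 and 161 in control, 90.4, 103, 112 and 130.2 in mild and 64.3, 91.5 and 115 in advanced mice. The advanced group lay just below the controls, at the edge of the threshold (log2 fold change -0.50 ± 0.19, adjusted p = 0.0495). Ppargc1a in CDAHFD hepatocyte nuclei read 116, 142, 147 and 197 in control, 93.9, 104, 106 and 123 in mild and 56.7, 66.3 and 74.8 in advanced mice, where advanced mice lay well below both other groups (log2 fold change -1.17 ± 0.18, adjusted p = 1.32e-04; mild log2 fold change -0.49 ± 0.16, adjusted p = 0.0194). Ppargc1a in whole liver nuclei of the FPC study read 86.3, 106, 115 and 146 in control, 69, 72.1, 80.1 and 90 in mild and 38.6, 59.8 and 61.5 in advanced mice. Whole liver Ppargc1a with the CDAHFD read 101, 119.9, 135 and 166 in control, 62.1, 79.9, 85.6 and 87.2 in mild and 42.3, 52.2 and 58 in advanced mice. Advanced mice lay below all controls (log2 fold change -1.11 ± 0.20, adjusted p = 4.47e-04 and log2 fold change -1.41 ± 0.18, adjusted p = 3.28e-05). The fall was called in all 4 whole liver comparisons against control. The Ppargc1a call in FPC advanced against control was lost when 1 of mice FPC_Control_6816, FPC_Control_6852, FPC_Control_6952, FPC_Advanced_6880 and FPC_Advanced_6904 was left out (-0.55 to -0.31, adjusted p = 0.0556 to 0.199), with RLE size factors (-0.51, adjusted p = 0.0502), with a stricter filter on low counts (-0.48, adjusted p = 0.0605), by library total (-0.12, adjusted p = 0.624) and in a fit of only both groups (-0.49, adjusted p = 0.0679). The Ppargc1a call in CDAHFD mild against control was lost when 1 of mice CDAHFD_Control_10113 and CDAHFD_Mild_9894 was left out (-0.43 to -0.33, adjusted p = 0.0522 to 0.0584), by library total (-0.14, adjusted p = 0.448) and with the gene length trend removed (-0.36, adjusted p = 0.0774).

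Pdk4 (chr6:5483351-5496278, minus strand) in FPC hepatocyte nuclei read 4.74, 5.43, 8.85 and 24.2 in control, 19.7, 37.8, 46.7 and 54.5 in mild and 23, 36.1 and 37 in advanced mice. It rose in both stages, with overlap through 1 high control (log2 fold change 1.97 ± 0.50, adjusted p = 0.0101 and log2 fold change 1.7 ± 0.52, adjusted p = 0.0185). Pdk4 in CDAHFD hepatocyte nuclei read 0.733, 2.15, 5.78 and 7.17 in control, 14.8, 24.8, 30.1 and 33.1 in mild and 15.7, 16 and 49.8 in advanced mice, with every diet-fed mouse above every control (log2 fold change 2.74 ± 0.62, adjusted p = 0.00356 and log2 fold change 2.82 ± 0.65, adjusted p = 0.00345). Pdk4 in whole liver nuclei of the FPC study read 4.19, 6.54, 8.21 and 18.9 in control, 16.7, 32.1, 38.9 and 41.7 in mild and 17, 23.1 and 27.7 in advanced mice. Whole liver Pdk4 with the CDAHFD read 2.31, 4.05, 5.82 and 6.62 in control, 11.2, 15.5, 21.8 and 21.8 in mild and 9.89, 12.4 and 23.8 in advanced mice. Pdk4 rose in both studies (log2 fold change 1.26 ± 0.45, adjusted p = 0.0309 and log2 fold change 1.67 ± 0.39, adjusted p = 0.00314 for advanced). The Pdk4 call in FPC advanced against control was lost when 1 of mice FPC_Advanced_6826 and FPC_Advanced_6904 was left out (1.59 to 1.6, adjusted p = 0.0505 to 0.0525).

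Vnn1, a pantetheinase of the CoA cycle (chr10:23894688-23905343, plus strand), in FPC hepatocyte nuclei read 2.88, 3.29, 15.4 and 16 in control, 38.5, 39.7, 41 and 51 in mild and 17.5, 20.1 and 28.4 in advanced mice. All groups were separate, mild highest, and the advanced rise missed the threshold (log2 fold change 2.25 ± 0.50, adjusted p = 0.00508 and log2 fold change 1.33 ± 0.52, adjusted p = 0.0544). Vnn1 in CDAHFD hepatocyte nuclei read 2.39, 3.95, 11.9 and 28.9 in control, 29.3, 36.1, 44.9 and 48.8 in mild and 20.4, 20.4 and 31.5 in advanced mice. Mild mice cleared the controls (log2 fold change 1.77 ± 0.61, adjusted p = 0.0298), and advanced mice overlapped CDAHFD_Control_9862 (1.06, adjusted p = 0.18). Vnn1 in whole liver nuclei of the FPC study read 2.07, 3.13, 12.1 and 12.6 in control, 27.9, 27.9, 29.2 and 33.5 in mild and 13.1, 14.7 and 20.5 in advanced mice. Whole liver Vnn1 with the CDAHFD read 2.47, 4.19, 9.79 and 22.2 in control, 18.7, 24.1, 27.4 and 29.4 in mild and 11.1, 11.6 and 16.6 in advanced mice. Vnn1 had a call in FPC mild mice (log2 fold change 1.95 ± 0.46, adjusted p = 0.00548) and none in CDAHFD mice (1.3, adjusted p = 0.064 for mild). Vnn1 in FPC advanced against control passed when 1 of mice FPC_Control_6816 and FPC_Control_6852 was left out (1.67 to 1.73, adjusted p = 0.0204 to 0.0294), with a stricter filter on low counts (1.35, adjusted p = 0.0492), by library total (1.72, adjusted p = 0.0166), with the gene length trend removed (1.36, adjusted p = 0.0436) and with DESeq2 (1.33, adjusted p = 0.0151). Vnn1 in FPC advanced against mild passed in a fit of only both groups (-0.94, adjusted p = 0.00717). Vnn1 in CDAHFD advanced against control passed without mouse CDAHFD_Control_9862 (2.02, adjusted p = 0.00421). The Vnn1 call in CDAHFD mild against control was lost when 1 of mice CDAHFD_Control_9867, CDAHFD_Control_10110, CDAHFD_Mild_9852 and CDAHFD_Mild_9894 was left out (1.48 to 1.78, adjusted p = 0.0552 to 0.0644) and with no filter on low counts (1.76, adjusted p = 0.0575).

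In whole liver nuclei as a set, 5 members rose and 16 fell in advanced FPC mice (59.3% of all genes called, 31.3% higher and 28% lower). In advanced CDAHFD mice 4 rose and 14 fell (55.7% of all genes, 29.7% higher and 25.9% lower). By library total these counts were 10 and 8 (FPC) and 6 and 10 (CDAHFD). Mild mice had 11 higher and 5 lower with FPC (43.2% of all genes, 25% higher and 18.2% lower). With the CDAHFD mild mice had 4 higher and 11 lower (52.2%, 27.7% higher and 24.5% lower). By library total the mild counts were 20 and 2 (FPC) and 9 and 5 (CDAHFD). Shares of all genes called by library total are not given for whole liver. FPC advanced against mild gave 20 lower and 0 higher (22.3%; 8.98% lower), and CDAHFD advanced against mild gave 0 by edgeR, with 7 at an unadjusted p under 0.05, 2 by DESeq2 and 5 in a fit of only both groups (1.88% of all genes, 1.05% lower). By library total the median of all genes against control in whole liver was 0.44 (FPC) and 0.47 (CDAHFD) in advanced mice. In mild mice that median was 0.31 and 0.37. The summed level of the 35 members in whole liver was 3903 to 4924, 5402 to 6206 and 3160.4 to 3524 scaled CPM in FPC control, mild and advanced mice. In hepatocyte nuclei it was 4628 to 6280.4, 6427 to 8594 and 3802 to 4542. In both fractions the mild FPC mice lay above all controls and the advanced mice below them. Such a sum weighs the genes of highest level most, and the steps went different ways. In FPC hepatocyte nuclei the peroxisomal sum was 739 to 1571 in control and 1944 to 2761 in mild mice. The electron transfer flavoprotein sum was 409 to 456 and 318 to 381, and that of hydration, dehydrogenation and thiolysis overlapped (573 to 756 and 505 to 808). The CDAHFD sums of the 35 members overlapped between controls (3476 to 7380.2 in hepatocyte nuclei) and mild mice (5363 to 5523), and advanced mice gave 3663 to 4542.

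**Figure D3:**
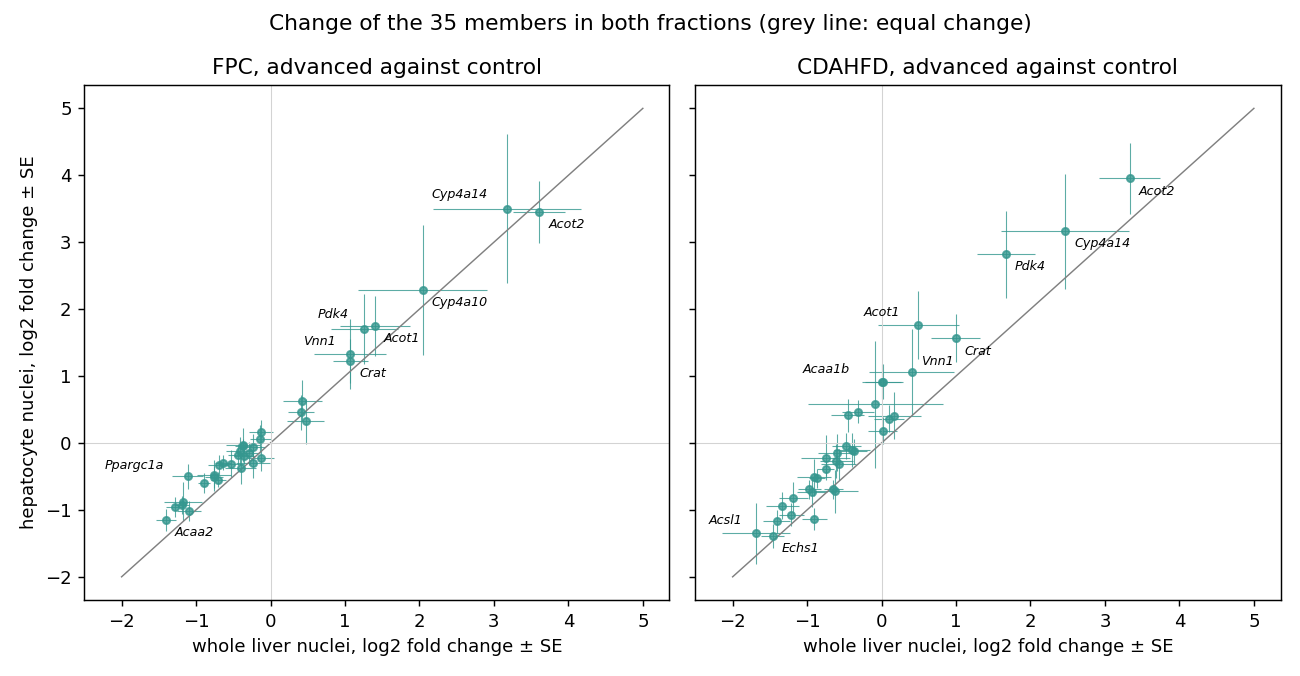
Log2 fold change of advanced against control, with SE, of the 35 members in whole liver nuclei (horizontal) and hepatocyte nuclei (vertical) of the FPC study (left) and the CDAHFD study (right); the grey line marks equal change. Of the 35 points, 31 (FPC) and 32 (CDAHFD) lie above the line, such as CDAHFD Acot1, a gene of low level, at 1.76 in hepatocyte and 0.49 in whole liver nuclei. The median difference over all genes was 0.0 in both studies, and the share of all genes above the line was not counted. Without the replicate block no member had a call on this difference.

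Hepatocyte and whole liver nuclei were then compared within a group. In FPC controls the median log2 difference over the 35 members was 0.23 (all genes 0.11), and Cpt2 alone was called higher (log2 fold change 0.27 ± 0.08, adjusted p = 0.0282), beside 17.5% of all genes called and 1.35% higher. In advanced FPC mice the median was 0.32 and 6 were higher: Cpt2, Acadm, Acad11, Etfa, Acat1 and Ppargc1a (22.5% of all genes, 4.83% higher). CDAHFD controls had Cpt2 and Acadvl higher (median 0.28; 31% of all genes, 14.6% higher), and advanced CDAHFD mice had Cpt2, Acadvl, Acad11, Ech1, Etfb, Acaa1a and Acaa1b (median 0.55; 43.2%, 20.1% higher). No member was lower in hepatocyte nuclei. With the mouse as a replicate block, which pairs the 2 libraries of a mouse, these counts rose to 18, 25, 13 and 18. Of all genes, 40.2% (FPC controls) and 44.8% (FPC advanced) were called with the block. The shares of all genes beside the CDAHFD counts of 13 and 18 are not given. The CDAHFD block counts use the labelled pairs, which controls CDAHFD_Control_9862 and CDAHFD_Control_9867 went against. With the whole liver libraries of those mice exchanged the counts were 24 and 29, beside 56.9% of all genes called in the controls. The share for the advanced mice with the exchange is not given. Without the block, both control counts were 0 with RLE size factors and by library total, where advanced mice gave 4 (FPC) and 7 (CDAHFD) by library total. The FPC control count was also 0 without FPC_Control_6816, and the FPC advanced count was 2 without FPC_Advanced_6826. The CDAHFD control count was 0 without CDAHFD_Control_9862 or CDAHFD_Control_10110, 1 without CDAHFD_Control_10113 and 8 without CDAHFD_Control_9867. The difference between fractions in the advanced change was called for 0 members in both studies by edgeR (3.82% and 10.2% of all genes), with 0 and 2 at an unadjusted p under 0.05. With the block it was called for 1 and 2 members, beside 9.45% and 18% of all genes. With the exchange it was called for 12 in the CDAHFD study, beside 29.6% of all genes.

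**Figure D4:**
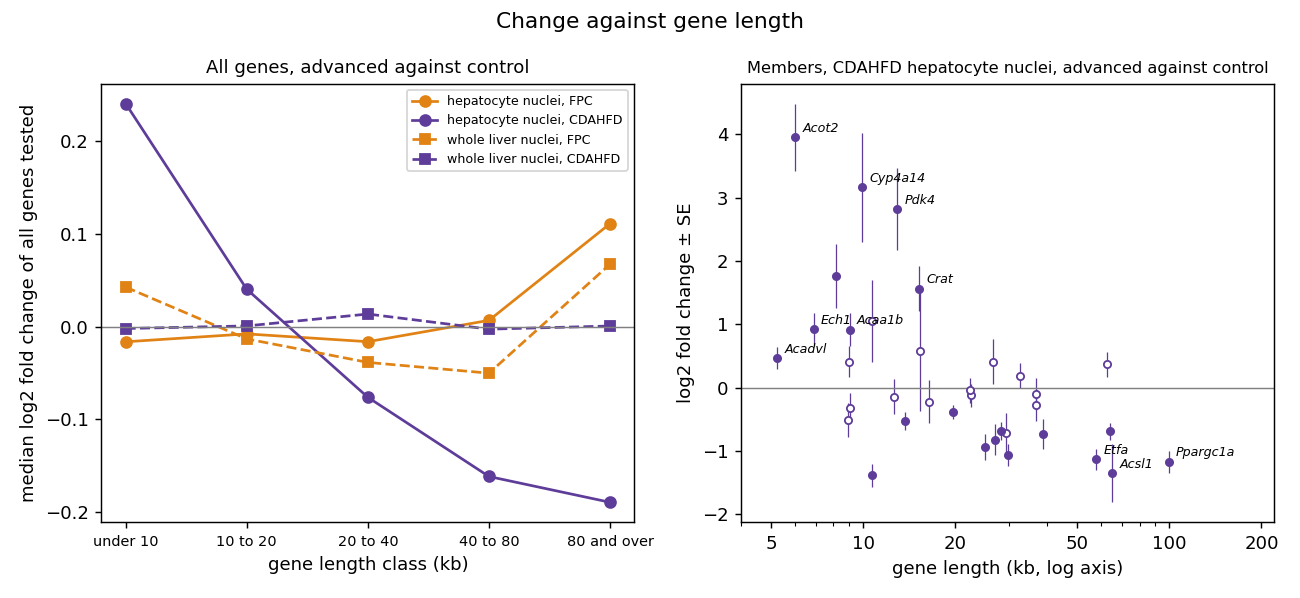
Left, median log2 fold change of advanced against control over all genes tested, by gene length class (kb), for both studies and fractions. Right, log2 fold change with SE of the 35 members in CDAHFD hepatocyte nuclei against gene length (kb, log axis), filled where the adjusted p was under 0.05. In CDAHFD hepatocyte nuclei the median declines from 0.24 to -0.19 with length, and Acot2, Cyp4a14 and Pdk4 lie far above the medians of their classes.

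Of the members called alike in both studies, the advanced changes of some were Crat 1.23 (FPC) and 1.56 (CDAHFD), Acot2 3.45 and 3.95, Pdk4 1.7 and 2.82, Echs1 -1.02 and -1.38, and Etfa -0.93 and -1.13. Others were called in advanced mice of a single study. Acadvl, Ech1 and Acaa1b rose and Hadh, Decr1 and Etfdh fell with the CDAHFD only, and Decr2 fell with FPC only. The difference itself was called for Acat1 alone in advanced mice, and for Decr1, Etfdh and Acat1 in mild mice, all lower with the CDAHFD. Diet and feeding period cannot be told apart in this comparison. The Decr1 and Etfdh differences were each lost in 9 of the runs that left out 1 mouse.

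Other genes of the pathway came from a list of 73, of which 72 were tested. In hepatocyte nuclei of advanced mice 8 rose and 31 fell in the FPC study (54.2% called; median -0.41; of all genes 46.9% were called, 26.5% higher and 20.4% lower), and 8 rose and 33 fell in the CDAHFD study (56.9%; median -0.48; of all genes 59.5%, 30.3% higher and 29.2% lower). By library total 18 rose and 24 fell (FPC; 44.7% and 7.99% of all genes) and 14 rose and 15 fell (CDAHFD; 49.6% and 12.3%). A list of 18 peroxisomal genes had 7 (FPC) and 8 (CDAHFD) lower and 0 higher; by library total 5 and 1 were lower and 3 and 2 higher. Of 20 regulators, 8 were lower and 2 higher in each study; by library total 7 and 3 were lower and 4 and 5 higher. Ppara, a fatty acid sensor, fell in advanced mice of both studies (log2 fold change -0.90 ± 0.19, adjusted p = 0.00201 and log2 fold change -0.71 ± 0.24, adjusted p = 0.0222); the CDAHFD call was lost by library total (-0.23, adjusted p = 0.446). The largest falls were in Nudt7, a peroxisomal CoA hydrolase (-3.09 ± 0.46 and -2.88 ± 0.55), Bdh2 (-2.51 ± 0.30 and -2.03 ± 0.23) and Cyp4f14 (-2.01 ± 0.30 and -2.18 ± 0.24) in the FPC study, and in Nudt7, Acaca and Cyp4f14 with the CDAHFD. Acaca, which makes the malonyl-CoA that restrains Cpt1a, fell with the CDAHFD (log2 fold change -2.61 ± 0.34, adjusted p = 5.86e-05) and had no call with FPC (-0.32, adjusted p = 0.332). The largest rises were in Fgf21, a hormone made by stressed and fasting liver (log2 fold change 4.91 ± 0.68, adjusted p = 7.72e-05 and log2 fold change 3.59 ± 0.67, adjusted p = 8.61e-04), Cyp4a31 in the FPC study (log2 fold change 3.18 ± 0.35, adjusted p = 1.03e-05), Cpt1c (log2 fold change 3.08 ± 0.37, adjusted p = 2.13e-05 and log2 fold change 4.0 ± 0.41, adjusted p = 8.64e-06) and, with the CDAHFD, Ucp2 (log2 fold change 4.33 ± 0.41, adjusted p = 5.59e-06). By the same edgeR test Cyp4a31 also rose with the CDAHFD (log2 fold change 2.63 ± 0.55, adjusted p = 0.00166) and Ucp2 with FPC (log2 fold change 2.95 ± 0.39, adjusted p = 4.2e-05). In FPC controls and advanced mice, Cpt1c read 0.18 to 0.55 and 1.72 to 2.91, and Fgf21 read 0.18 to 1.04 and 4.74 to 17.8. Ucp2, known from macrophages as well as fatty liver, read 0.258 to 1 in controls and 7.75 to 18.7 in advanced mice of the CDAHFD study in hepatocyte nuclei, where the recruited macrophage markers given above also rose; their part was not tested.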

How the data were processed

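Nuclear RNA of 44 libraries, from 22 mice and 2 fractions, was sequenced from a stranded total RNA kit, per the labels' protocols. The count table was deposited by the authors as whole-number counts per RefSeq identifier; STAR 2.4.2a and DESeq2 1.24.0 are named in the submitters' processing notes, and the counting tool and its strand setting are not given in the sources used here. The authors' deposited table of log2 fold changes and adjusted p-values was used only for gene names, gene positions (mm10), lengths and a comparison of signs. It named 13147 identifiers, a table from RefSeq another 6879, and 79 had no symbol.

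Counts were tested with edgeR 4.0.16 in R 4.3.3 (limma 3.58.1): robust quasi-likelihood fits, TMM scaling, filterByExpr, and Benjamini-Hochberg adjustment over all genes tested, with a threshold of 0.05. Control, mild and advanced mice were compared in fits within each study and fraction. Differences between studies used a fit of all hepatocyte libraries, and comparisons of fractions used a fit of both fractions of a study. The SE is the log2 fold change divided by the root of F. Levels of the text are CPM after TMM scaling of all 44 libraries. The fits were tested on simulated data. A value in every library is given for the 2 members of each role with the largest advanced change, for near-identical copies and for Cpt1a, Bdh1, Acat1 and Ppargc1a; of other pathway genes, Ppara is given, with the 3 largest called rises and falls of each study, and other genes fixed by that rule are not reported here. The members and lists were chosen with earlier results of these data known.

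Mouse numbers pair the fractions: the libraries of a mouse deviated together from their group means in 20 of 22 mice (r over 0.1 over 10249 genes), and controls CDAHFD_Control_9862 and CDAHFD_Control_9867 matched each other's instead. Alternatives were RLE size factors, other filters, DESeq2 1.42.0, fits of only the groups compared, leaving out each mouse and the replicate block. Scaling by library total, removal of the gene length trend, the exchange of those libraries and the test of the difference between fractions were added after seeing the data. Of the columns of per-sample values, 0 were left unused.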

Additional observations from a re-analysis of the deposited data

Results flagged for a closer look

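Within groups of 4 mice, 14 of 184 sets of values for 23 members had 1 mouse whose gap to the nearest other mouse was wide against the group's range (above Dixon's critical value); chance gives about 1 in 20. In hepatocyte nuclei, FPC mild mouse FPC_Mild_6886 read 95 scaled CPM for Acadvl (others 57.3 to 61.5) and mouse FPC_Mild_6887 read 124 for Cyp4a10 (others 47.2 to 54.0). FPC control FPC_Control_6953 read 243 for Acaa2 (others 325 to 337) and 149 for Acat1 (others 174 to 177). CDAHFD mild mouse CDAHFD_Mild_9853 read 928 for Cpt1a (others 742 to 762), mouse CDAHFD_Mild_9894 read 108 for Etfa (others 120.5 to 122) and mouse CDAHFD_Mild_10102 read 2.88 for Acot2 (others 1.66 to 1.85). In whole liver nuclei, FPC mild mouse FPC_Mild_6887 read 728 for Cpt1a (others 584 to 600.5) and 89.6 for Cyp4a10 (others 38.7 to 40.5), and mouse FPC_Mild_6825 read 87.5 for Acaa1a (others 158 to 166) and 701 for Acaa1b (others 1421 to 1477). FPC control FPC_Control_6816 read 30.6 for Acadvl (others 39.5 to 40.7). CDAHFD mild mouse CDAHFD_Mild_9894 read 19.9 for Cyp4a14 (others 60.8 to 63.8), and mouse CDAHFD_Mild_9853 read 2.38 for Acot2 (others 1.43 to 1.48).

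Changes of 3 members in hepatocyte nuclei differed between the studies by edgeR's test of the difference. Acat1 was lower with the CDAHFD by a log2 difference of -0.72 in advanced mice (adjusted p = 0.0261) and -0.72 in mild mice (adjusted p = 0.0186). Decr1 differed by -0.79 (adjusted p = 0.0362) and Etfdh by -0.80 (adjusted p = 0.0348) in mild mice. Except for Acat1 in mild mice, each of these calls was lost in some of the runs that left out 1 mouse.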

How the results depend on the processing

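Among single members in hepatocyte nuclei (5 comparisons of groups other than CDAHFD advanced against mild, and 2 between studies), no called direction turned under the filters, RLE size factors, DESeq2, fits of only both groups, the length trend or leaving out a mouse. By library total the sign turned in 3 results that had a call under either scaling. These were Acadm in FPC advanced against control (0.35, adjusted p = 0.0287, no call by TMM), Acat1 in the same comparison (0.10) and Cpt2 in CDAHFD advanced against control (0.11). In runs without 1 mouse 126 of 2345 member results lost a call and 35 gained one; by library total 31 of 245 lost and 22 gained one; DESeq2 added 6 of 242 and lost 0. In whole liver nuclei, the runs without 1 mouse lost 54 and gained 34 of 1540, DESeq2 lost 1 and gained 8 of 207, and library total lost 23 and gained 20 of 210. Library total also turned the sign of 4 there: Decr1 in CDAHFD mild against control (0.02), Acadl and Acadm in FPC advanced against control (0.09 and 0.07) and Acat1 in FPC mild against control (0.28, adjusted p = 0.0464, no call by TMM). The counts of members called moved by over 1.5 times as follows. FPC advanced against mild in hepatocyte nuclei gave 9 by library total. CDAHFD advanced against mild gave 2 by DESeq2 and 5 in a fit of only both groups, in hepatocyte and in whole liver nuclei alike. Hepatocyte against whole liver nuclei gave, in FPC controls, 0 with RLE size factors or library total, 2 without a filter or with a stricter one, 3 with the length trend removed and 18 with the replicate block. FPC advanced mice gave 14 with the length trend removed and 25 with the replicate block. CDAHFD controls gave 0 with RLE size factors or library total, 1 with DESeq2 or the length trend removed, 13 with the replicate block and 24 with the block and libraries CDAHFD_Control_9862 and CDAHFD_Control_9867 exchanged. CDAHFD advanced mice gave 12, 18 and 29 with the length trend removed, the block and the exchange. The difference between fractions gave 1 (FPC) and 2 (CDAHFD) with the replicate block and 12 with the exchange, beside 9.45%, 18% and 29.6% of all genes. For hepatocyte against whole liver nuclei, the block called 40.2% (FPC controls) and 44.8% (FPC advanced) of all genes. The block with the exchange called 56.9% in CDAHFD controls. The shares of all genes for the other CDAHFD counts of this comparison with the block or the exchange are not given.

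Leaving out each mouse, the counts of members called ranged from 10 to 16 (FPC advanced), 12 to 17 (mild), 12 to 19 (advanced against mild), 16 to 23 (CDAHFD advanced), 15 to 21 (mild) and 0 to 0 (advanced against mild) in hepatocyte nuclei. In whole liver they ranged from 18 to 22, 16 to 17, 16 to 23, 15 to 24, 13 to 19 and 0 to 0 in that order. The difference between studies ranged from 0 to 3 (advanced) and 1 to 5 (mild). Hepatocyte against whole liver nuclei ranged from 0 to 1 and 2 to 5 (FPC control and advanced) and from 0 to 8 and 5 to 7 (CDAHFD), and the difference between fractions from 0 to 0 and 0 to 1.

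Over all genes, CDAHFD advanced against mild in hepatocyte nuclei gave 375 calls, and 634 by library total, 1133 by DESeq2 and 745 in a fit of only both groups; whole liver gave 265, 717 by DESeq2 and 483 in that fit. Depth limits Acot2, whose control levels rest on few counts.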
